A study of Mus musculus with 15 samples.

Results

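The Otx2 GABAergic neurons described here are 1147 nuclei out of 134019 barcodes from mouse dorsal hippocampal formation (dHF) micropunches, or 0.856% of all barcodes. A nucleus was a member when it had at least 1000 detected genes, at least 2 unique molecular identifiers (UMIs, counted RNA molecules) from Gad1 and Gad2 together, at least 2 from Otx2 and its opposite-strand transcript Otx2os1 together, at most 1 from Mecom, Pax3 and Gata3 together and fewer than 3 from Rarb. Members made up 0.921% of the 124527 nuclei with at least 1000 genes and 8.16% of the 14054 GABAergic nuclei, which are all nuclei meeting the Gad1 and Gad2 threshold. Because Otx2, Otx2os1, Gad1, Gad2, Mecom, Pax3, Gata3 and Rarb chose the members, their values are given as a description, without a test.

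Single-nucleus RNA-seq was performed on 15 female wild-type C57BL/6J mice, each giving 1 library. Virgin nulliparous (NP) mice numbered 6. Control RE dams, which had been bred, had given birth and had lactated and lived with their pups, numbered 4, and stress RE dams, which had in addition received limited nesting and daily pup separations late in the postpartum period, numbered 5. The comparisons ask whether reproductive experience, and stress after birth, went with lasting differences in this tissue. The libraries were labelled as 3 batches, and batch 1 held 2 NP mice and 1 stress RE mouse but no control RE mouse. According to the study's methods the punches also took in adjoining cortical and thalamic tissue. Libraries held between 40602582 and 96211264 UMIs. Across libraries, 2211 barcode sequences occurred more than once, with at most 47 in any pair of libraries, and 0 of them was a member in more than 1 library.

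OTX2 is a homeodomain transcription factor that patterns the forebrain and midbrain and stays active in a few adult tissues, among them the choroid plexus. In the mouse thalamus, a population of local GABAergic interneurons arises from the midbrain and carries the factors Sox14 and Otx2, whereas GABAergic interneurons of the hippocampus and cortex come from the ganglionic eminences and carry the LIM-homeobox factor Lhx6 or factors of the Dlx family. Npsr1 encodes the receptor for neuropeptide S, a peptide linked to arousal and anxiety-related behaviour.

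Promoter windows were taken from RefSeq for 3 genes that separated the members from other GABAergic nuclei in the comparisons that follow, so that a reader can see the sequence next to each level. Npsr1 and Gabrr2 (a rho subunit of ionotropic GABA receptors) were higher in members, and Tcf7l2 (an effector of Wnt signalling that marks the thalamus) was lower than in the nearest class. Windows are given 5′ to 3′ on the gene's strand in GRCm38.p6, without bases in an exon annotated by GENCODE, and capitals mark TAATCC or its reverse complement GGATTA, the core letters bound by OTX-type homeodomains.
Npsr1, chr9:24097768-24097995, plus strand: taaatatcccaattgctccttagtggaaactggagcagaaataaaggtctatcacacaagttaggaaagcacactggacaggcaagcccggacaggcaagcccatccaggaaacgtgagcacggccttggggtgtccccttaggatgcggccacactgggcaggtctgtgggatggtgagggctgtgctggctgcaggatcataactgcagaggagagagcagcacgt
Gabrr2, chr4:33062862-33062998, plus strand: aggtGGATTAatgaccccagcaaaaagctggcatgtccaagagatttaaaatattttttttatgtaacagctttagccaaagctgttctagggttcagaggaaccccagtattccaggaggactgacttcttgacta
Tcf7l2, second start, chr19:55895071-55895320, plus strand: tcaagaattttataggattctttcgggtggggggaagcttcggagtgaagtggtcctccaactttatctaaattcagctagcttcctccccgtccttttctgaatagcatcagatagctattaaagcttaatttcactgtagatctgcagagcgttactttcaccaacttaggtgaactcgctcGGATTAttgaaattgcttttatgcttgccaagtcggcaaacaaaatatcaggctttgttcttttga

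The motif, searched on both strands in the 250 bases before each start, occurred in 6.25% of 32851 windows of all genes. Of the 12 genes named as higher in members than in Gata3/Pax3 nuclei, 8 had windows, and 3 of their 10 windows held it, those of Gabrr2, Nos1 and Prkg1. Of the genes named as lower, 11 had windows, and 1 of 12 windows held it, the second Tcf7l2 start. Against Lhx6 interneurons, 1 of 12 windows of the higher genes held it (8.33%, Gabrr2) and 2 of 14 windows of the lower genes (14.3%, Dlx6os1 and Lamp5). The printed Npsr1 window held none. The window of the first Tcf7l2 start (chr19:55741560-55741809) also held none and is not printed, so the printed windows do not show how common the motif is. The search covered the whole 250 bases, of which the printed windows are the part outside exons. These matches describe letters in short windows and were not tested.

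Most members stood well clear of the Otx2 threshold. The median member had 9 Otx2 and Otx2os1 UMIs and the highest had 188, and 851 members (74.2%) had 5 or more. Just inside the threshold were 107 members with exactly 2 such UMIs, and just outside were 244 nuclei with exactly 1 that met every other condition, with Npsr1 at 20.4 CPM inside and 1.28 CPM outside. Nearly all of the signal came from the opposite-strand transcript, with 15802 UMIs from Otx2os1 against 1280 from Otx2, and 475 members carried Otx2os1 alone, 6 carried Otx2 alone and 666 carried both. The gene Otx2 lies on the minus strand of chr14:48657677-48673819 and Otx2os1 on the plus strand of chr14:48668708-48870683 (GENCODE M21, GRCm38), so the annotations overlap in part, and reads in the shared stretch can be told apart only by strand. A further 587 nuclei met the Gad, Otx2 and Rarb conditions but carried 2 or more UMIs of Mecom, Pax3 and Gata3, which is 33.9% of these nuclei and the members together, and 72 nuclei were left out by Rarb alone. The other limits were closer. Exactly 1 UMI of Mecom, Pax3 and Gata3 was carried by 355 members, and 141 of the 587 nuclei had exactly 2. Exactly 2 Gad1 and Gad2 UMIs were carried by 118 members, of which 28.0% had Slc32a1, against 48.1% of all members.

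The levels of Otx2 and Otx2os1 RNA in the compared classes are a description, since members and the GABAergic comparison classes were chosen with limits on it. Summed over all nuclei of a class, the pair reached 1413 CPM (UMIs of the gene scaled to 1000000 UMIs of the class) in members, 2427 CPM in choroid plexus type nuclei, 11.1 CPM in the Gata3/Pax3 GABAergic nuclei described in the next paragraphs, 1.43 CPM in Lhx6 interneurons and 8.23 CPM in oligodendrocytes, which should lack it. The choroid plexus secretory gene Ttr separated the first 2 of these, at 39.0 CPM in members and 8952 CPM in choroid plexus type nuclei, while oligodendrocytes had 61.0 CPM. The vesicular GABA transporter Slc32a1 was detected in 48.1% of members (median depth 9161 UMIs) and 1.11% of oligodendrocytes (median depth 3055 UMIs), and after every nucleus was thinned to 1000 UMIs in 8.20% and 0.347%. Markers of other cells reached a set level in 146 members (12.7%), of which 64 carried choroid plexus transcripts, 63 oligodendrocyte transcripts and 32 the excitatory marker Slc17a7. Scrublet, a doublet caller, placed 11.7% of members among its highest scores against 11.2% of all GABAergic nuclei and 7.47% of all barcodes.

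The receptor gene Npsr1, the third label marker, was carried by a minority. It had at least 1 UMI in 222 members (19.4%), in 3.38% of Gata3/Pax3 nuclei, 1.07% of Lhx6 interneurons and 0.689% of oligodendrocytes, whose median depths were 10985, 16859 and 3055 UMIs. After thinning to 1000 UMIs it was seen in 10.0% of members, 1.00% of Gata3/Pax3 nuclei and 0.244% of oligodendrocytes. Among members the share rose with the gate's own signal, from 5.41% of the 296 nuclei with 2 to 4 Otx2 and Otx2os1 UMIs to 21.0% of the 291 with 10 to 19 and 51.0% of the 51 with 50 or more. The median depth of those bins rose too, from 8241.5 to 11560 UMIs, and its part in the trend was not tested. Of the label markers, the pair Otx2 and Otx2os1 was thus present in every member by the rule, and Npsr1 was detected in a subset.

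**Figure D1:**
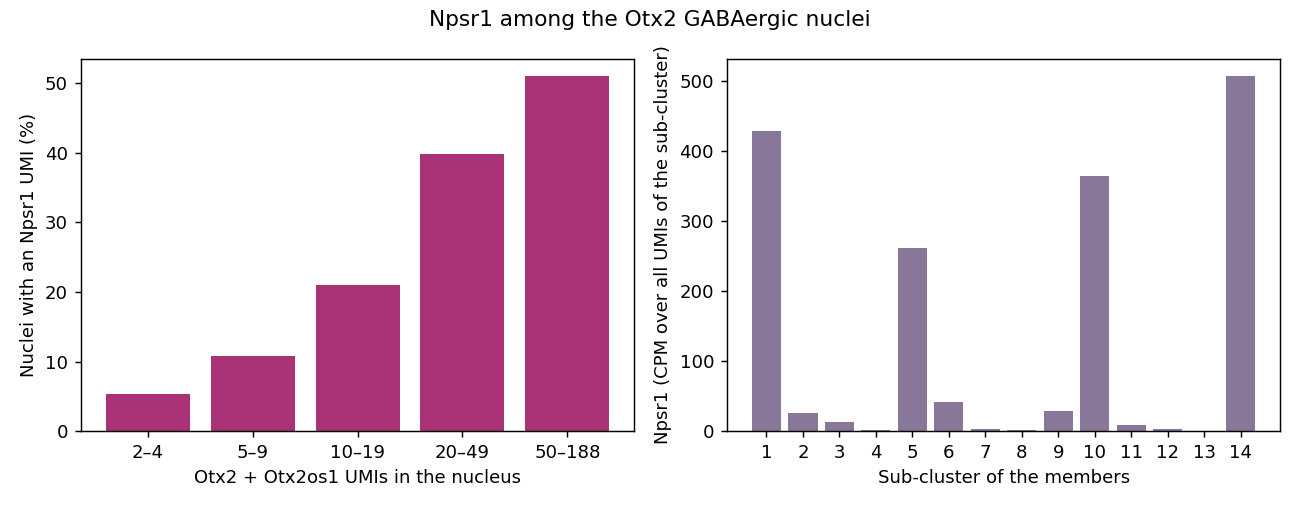
Left, percentage of members with an Npsr1 UMI (y axis) by their number of Otx2 and Otx2os1 UMIs (x axis), from 5.41% to 51.0%. Right, Npsr1 in CPM (y axis) over all UMIs of each of the 14 sub-clusters (x axis), with bars highest for sub-clusters 1, 5, 10 and 14.

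Clustering the members on genes other than the 8 of the gate gave 14 sub-clusters, numbered by size, and it showed a mixed population. Sub-clusters were defined by the same genes that describe them, so their leading genes are a description. Npsr1 was concentrated in sub-clusters 1, 5, 10 and 14, at 428, 261, 364 and 507 CPM, and was at most 42.3 CPM in every other sub-cluster. Sub-cluster 1, with 259 nuclei from all 15 mice, was led by Gabrr2 (229 CPM, against 20.3 CPM in the other members), the nicotinic receptor subunit Chrnb3 (195 against 20.9 CPM) and Scube2. Sub-cluster 5, with 100 nuclei from 13 mice, was led by Adamtsl1 and carried the homeobox gene Meis2 at 1550 CPM and Reln, which encodes the secreted protein reelin. Both also had the most Otx2os1, at 2915 and 2158 CPM.

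The remaining sub-clusters had other programmes. Sub-cluster 2 (155 nuclei) was led by the transcription factors Ebf3 and Tfap2b and carried somatostatin RNA (Sst, 44.4 CPM), sub-cluster 3 (151 nuclei) by Gulp1, the netrin-G gene Ntng1 and Meis1 (156 CPM), and sub-cluster 4 (102 nuclei) by the relaxin receptor Rxfp1, with Tcf7l2 at 492 CPM and no Sox14 UMI. Sub-cluster 7 (54 nuclei), with the potassium channel Kcnq5 among its leading genes, carried the prolactin receptor Prlr at 193 CPM, the highest of the 14, and Tcf7l2 at 447 CPM. The midbrain factor Pax7 was highest in sub-clusters 8, 13 and 11, at 126, 101 and 91.9 CPM, and sub-cluster 13 (25 nuclei) also carried parvalbumin (Pvalb) at 61.2 CPM. Sub-cluster 12 (30 nuclei) had Thsd7b (2230 CPM) and Hs3st4 (1750 CPM) among its leading genes, and carried Nkx2-2 at 34.1 CPM. The midbrain and thalamic factors Tal1 and Lhx1 were detected in every sub-cluster, at 12.8 to 54.0 CPM for Tal1 and 3.19 to 68.2 CPM for Lhx1.

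A few sub-clusters carried RNA of other cells. Sub-cluster 10 (40 nuclei) carried oligodendrocyte genes, with Mobp at 275 CPM, and 82.5% of it had high Scrublet scores. Sub-cluster 6 (83 nuclei) had a median of 17908 UMIs, the highest of the 14, with 69.9% high Scrublet scores and Ttr at 212 CPM. It was led by Glis3 (412 CPM, against 25.8 CPM in the other members), Gmnc and Slit3, with Trpc6 at 232 CPM and Chst9 at 123 CPM. Sub-cluster 9 (43 nuclei), with Scube1, Syt6 and Sox6 among its leading genes, had the lowest Slc32a1 (9.57 CPM) and 46.5% high Scrublet scores. Sub-cluster 14 (18 nuclei) was led by the macrophage genes Mrc1 and Cd163 together with Car8. The part of mixed droplets in these sub-clusters was not tested.

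**Figure D2:**
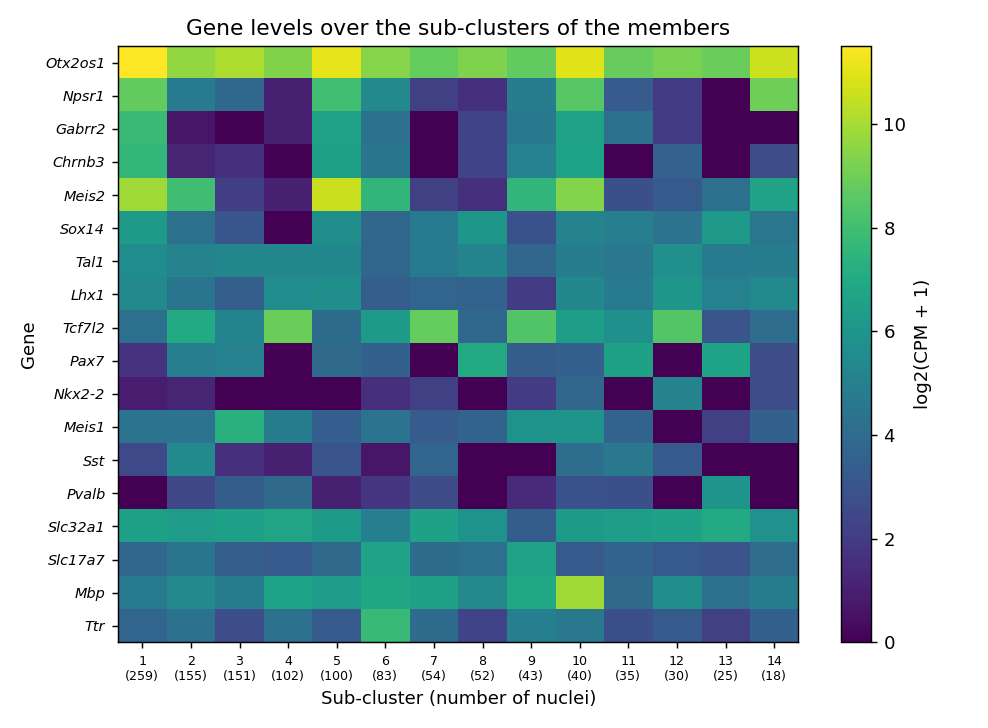
Heat map of the level of 18 genes (rows) in 14 sub-clusters of the members (columns, with the number of nuclei), as log2(CPM + 1). Npsr1, Gabrr2, Chrnb3 and Meis2 were high together in sub-clusters 1, 5 and 10, and Mbp stood out in sub-cluster 10.

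Every mouse contributed members, and sub-cluster 1 was present in all of them. Members numbered from 15 in NP mouse 35 to 177 in control RE mouse 87, which held 15.4% of all members. Sub-cluster 1 took between 15.3% and 46.7% of a mouse's members, with means of 24.2% ± 11.4 in NP (SD, n = 6), 29.3% ± 8.05 in control RE (n = 4) and 25.2% ± 9.70 in stress RE (n = 5), and these ranges overlapped. Sub-clusters 11 and 14 came from 7 mice each and sub-cluster 13 from 8.

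The nearest classes for comparison were chosen on marker UMIs in the same libraries. Gata3/Pax3 GABAergic nuclei (800 in all) had at least 2 UMIs of Mecom, Pax3 and Gata3 and at most 1 of Otx2 and Otx2os1. Lhx6 interneurons (563 in all) had at least 2 Lhx6 UMIs, at most 1 of Mecom, Pax3 and Gata3 and at most 1 of Otx2 and Otx2os1. Both classes met the Gad and Rarb conditions of the members. UMIs were summed per mouse and class, and edgeR's quasi-likelihood test was fitted with mouse as a block, in the 14 or 15 mice with at least 10 nuclei of both classes. The 8 gate genes, and Lhx6 in the second comparison, were left out.

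Against Gata3/Pax3 nuclei, members had higher Chrnb3, Gabrr2, Meis2 and Npsr1 and lower Tcf7l2 and Grik3. Of 7961 genes, 1453 passed an adjusted p of 0.05, which is 18.3%, with 712 (8.94%) higher and 741 (9.31%) lower in members. Chrnb3, a nicotinic acetylcholine receptor subunit, had 645 UMIs over all members and 4 over all Gata3/Pax3 nuclei. Across the 14 mice its level in members was 24.8 CPM at the lowest, 51.1 at the median and 93.1 at the highest, against 0, 0 and 2.39 CPM in Gata3/Pax3 nuclei, so the mouse sums of the classes did not overlap. The sums combine sub-clusters with much Chrnb3, at 195, 92.9 and 100 CPM in sub-clusters 1, 5 and 10, and others at or near 0, at 1.27 and 2.06 CPM in sub-clusters 2 and 3 and 0 in sub-clusters 4, 7, 11 and 13. The fitted log2 difference was 6.65 ± 0.24 (SE, adjusted p = 1.3e-15), and the pooled ratio of 137 had a 95% counting interval of 53.1 to 503. With so few UMIs in Gata3/Pax3 nuclei, Chrnb3 passed the filter on low counts through members alone and had to come out higher. Its p and ratio are therefore only a description.

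Gabrr2 behaved alike, at 33.6, 60.9 and 93.1 CPM in members (lowest, median, highest) and at most 3.56 CPM in Gata3/Pax3 nuclei, a log2 difference of 5.50 ± 0.24 (adjusted p = 1.6e-14). It had 12 UMIs over all Gata3/Pax3 nuclei, so it too passed the filter through members alone and its p is only a description. Meis2, a homeobox factor of developing interneurons, was at 215, 397 and 590 CPM in members and 1.04, 8.23 and 161 CPM in Gata3/Pax3 nuclei, a log2 difference of 4.41 ± 0.33 (adjusted p = 2.7e-10). Npsr1 was at 77.3, 141 and 254 CPM in members and 0, 1.94 and 48.0 CPM in Gata3/Pax3 nuclei, a log2 difference of 3.57 ± 0.38 (adjusted p = 1.2e-07). Each of these 3 genes was higher in members in all 14 mice, with no overlap between the classes, which held for 0.779% of all genes. Meis2 and Npsr1, at medians of 8.23 and 1.94 CPM in Gata3/Pax3 nuclei, also passed the filter on low counts through members alone. The p of all 3 genes and the lack of overlap are therefore only a description. Npsr1 was one of the markers given with the label, so its difference was known from earlier work with these data.

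Other genes higher in members in every mouse were Trpm3, a calcium-permeable channel (log2 difference 2.40 ± 0.12), Prkg1, a cGMP-dependent kinase (2.48 ± 0.14), Nos1, the neuronal nitric oxide synthase (2.36 ± 0.20), and Foxp2, a forkhead factor (2.16 ± 0.19). All 4 passed the test in edgeR (adjusted p = 3.3e-13, 1.2e-12, 3.0e-09 and 3.9e-09). Lhfp, Pcbp3, Eepd1 and Mcc had log2 differences between 2.32 and 3.00. Nos1 and Eepd1, at medians of 8.17 and 10.2 CPM in Gata3/Pax3 nuclei, passed the filter on low counts through members alone. Their differences, and the p of Nos1, are therefore only a description. On the lower side, Tcf7l2 stood at 40.8, 136 and 305 CPM in members and 278, 592 and 874 CPM in Gata3/Pax3 nuclei, a log2 difference of -2.09 ± 0.21 (adjusted p = 5.8e-08), and it was lower in members in all 14 mice although the ranges overlapped. The log2 difference was -2.02 ± 0.14 for the kainate receptor subunit Grik3, -1.83 ± 0.18 for the sorting receptor Sorcs1, -1.80 ± 0.16 for the G-protein regulator Rgs6, -1.56 ± 0.11 for the receptor kinase Alk and -1.55 ± 0.11 for the adrenergic receptor Adra1a (adjusted p = 8.4e-11, 4.1e-08, 6.3e-09, 8.7e-11 and 2.7e-10).

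**Figure D3:**
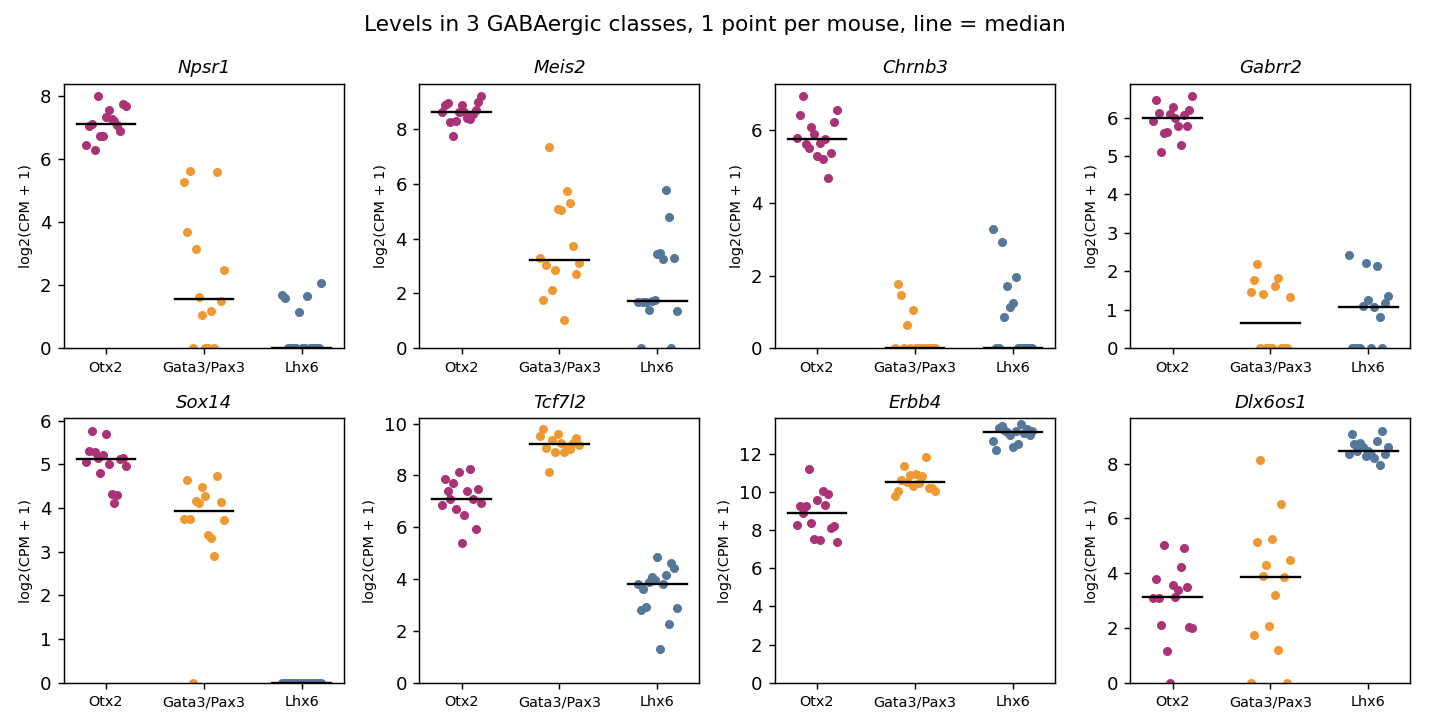
Levels of 8 genes, as log2(CPM + 1) on the y axis, in members (Otx2), Gata3/Pax3 nuclei and Lhx6 interneurons, with 1 point per mouse and a line at the median. Npsr1, Meis2, Chrnb3 and Gabrr2 were higher in every point of the left column than in any point of the other columns, and Tcf7l2 was highest in Gata3/Pax3 nuclei.

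Gene groups were counted from lists drawn up with earlier results of these data known, so the counts are descriptions. Among midbrain and thalamic GABAergic factors, 9 of 21 were tested against Gata3/Pax3 nuclei. Meis2, Sox14, Zic1 and Zfpm2 were higher and Tcf7l2 was lower, beside 8.94% higher and 9.31% lower over all genes, and the median log2 difference was 0.21, against 0.0035 over all genes. Sox14, the factor of midbrain-derived thalamic interneurons, was at 16.2, 32.9 and 50.9 CPM in members and 0, 14.4 and 25.7 CPM in Gata3/Pax3 nuclei (log2 difference 1.04 ± 0.14, adjusted p = 6.6e-06). It passed the filter on low counts through members, so its p is only a description. Tal1 and Lhx1, also on this list, differed by 0.21 ± 0.12 (adjusted p = 0.25) and 0.14 ± 0.15 (adjusted p = 0.60) and did not pass. The homeobox gene Dmbx1 was not tested, with 220 UMIs in members and none in Gata3/Pax3 nuclei, at least 62.2-fold higher on a floor of 3 UMIs over that class. The nicotinic subunit Chrna6 had 155 UMIs and none, at least 43.8-fold higher.

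Ion channels and receptors divided in both directions. Of 34 voltage-gated and leak channels tested, 6 were higher and 14 lower, with a median log2 difference of -0.18, beside 8.94% higher and 9.31% lower over all genes. The L-type calcium channel subunit Cacna1d was higher by 1.10 ± 0.06 (adjusted p = 1.5e-12), with no overlap between 710 CPM at the lowest in members and 616 at the highest in Gata3/Pax3 nuclei. Of 22 glutamate receptor genes, 5 were higher and 8 lower, and of 18 GABA and glycine receptor genes 4 were higher and 6 lower. Of 10 monoamine and acetylcholine receptor genes tested, 2 were higher (Chrnb3 and the muscarinic receptor Chrm2) and 6 lower, among them the serotonin receptors Htr2c, Htr4, Htr1f and Htr2a, and the median was -0.56. The mu-opioid receptor Oprm1 was higher, by 1.37 ± 0.15 (adjusted p = 1.4e-07), and the orexin receptor Hcrtr2 lower, at -1.02 ± 0.13 (adjusted p = 1.1e-06). None of 6 tested genes of H3 dopaminylation and dopamine signalling passed, and among 11 hormone and stress receptors and their targets 1 did, the glucocorticoid-induced kinase Sgk1, which was lower (log2 difference -0.71 ± 0.08, adjusted p = 4.8e-07), or 9.09% of the list beside 18.3% over all genes.

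Against Lhx6 interneurons, the differences were larger and more numerous, at 3225 of 7857 genes (41%), with 1697 (21.6%) higher and 1528 (19.4%) lower. All 7 tested midbrain and thalamic factors were higher in members, with a median log2 difference of 5.45 against 0.029 over all genes. That median was the value of Meis2, which the floor for Sox14 did not move. The other 14 of the 21 factors were too low to test, and a factor that passed the filter through members alone had to differ, so the count is only a description. Sox14 had 393 UMIs in members and none in Lhx6 interneurons, at least 114-fold higher. Tal1 and Lhx1 had 407 and 341 UMIs against 1 each. Meis2 was at 215, 399 and 590 CPM in members and 0, 2.27 and 54.4 CPM in Lhx6 interneurons (log2 difference 5.45 ± 0.27, adjusted p = 1.2e-14). It too passed the filter through members alone, so this p is only a description.

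Npsr1 differed most among the genes named for a level of at least 50 CPM in members, at 77.3, 137 and 254 CPM in members and 0, 0 and 3.16 CPM in Lhx6 interneurons (log2 difference 7.43 ± 0.22, adjusted p = 3.7e-18). Over all nuclei this was 1639 UMIs against 7, a ratio of 204 with a 95% counting interval of 98.6 to 507. The heparan sulphate enzyme gene Hs3st3b1 had a log2 difference of 6.96 ± 0.24, Unc13c, a presynaptic priming factor, 5.39 ± 0.33, and the homeobox genes Zfhx3 (5.37 ± 0.19) and Zfhx4 (4.48 ± 0.20), all with an adjusted p of 6.3e-13 or less in edgeR. No mouse overlapped between classes in any of these 5 genes, which held for 5.55% of all genes tested. Npsr1 was a label marker, and Hs3st3b1 had 5 UMIs over all Lhx6 interneurons. Unc13c, Zfhx3 and Zfhx4 had medians of 8.46, 17.7 and 13.2 CPM in Lhx6 interneurons. All 5 genes passed the filter on low counts through members alone, and Npsr1 and Hs3st3b1 had to come out higher. The p-values and the lack of overlap of all 5 are therefore only a description.

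Of 26 listed factors and markers of forebrain interneurons 11 were tested, of which 8 were lower and 2 higher in members and Prox1 was not called, beside 19.4% lower and 21.6% higher over all genes. Their median log2 difference was -3.81, against 0.029 over all genes. The other 15 were too low to test or, for Lhx6, left out, and a gene that passed the filter through Lhx6 interneurons alone had to be lower in members, so this count too is only a description. Dlx6os1, transcribed from the Dlx5/Dlx6 locus, was at 0, 7.76 and 31.8 CPM in members and 243, 354 and 582 CPM in Lhx6 interneurons (log2 difference -5.50 ± 0.22, adjusted p = 2.9e-16). The peptides Npy and Sst had log2 differences of -4.94 ± 0.26 and -3.81 ± 0.18, and the factor Dlx1 of -3.84 ± 0.29. The 2 that were higher were Nr2f2, a nuclear receptor also called COUP-TFII (2.93 ± 0.14, adjusted p = 6.3e-15), and Adarb2. Npy, Sst and Dlx1 all passed in edgeR (adjusted p = 3.5e-14, 4.1e-15 and 5.4e-11). In members the medians of Dlx6os1 and Npy were 7.76 and 1.43 CPM, and both passed the filter through Lhx6 interneurons alone. The p-values of Dlx6os1, Npy, Sst and Dlx1 are given only as a description. The neuregulin receptor Erbb4 had a log2 difference of -4.25 ± 0.28 (adjusted p = 3.5e-12).

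Transmission genes also separated these classes. The GABA transporter Slc6a11 was higher in members, with a log2 difference of 1.43 ± 0.22 (adjusted p = 8.8e-06). Among GABA and glycine receptor genes 8 of 19 were higher, with the glycine receptor subunit Glra1 at a log2 difference of 4.95 ± 0.32, and 7 were lower, with Gabrd, the subunit of tonic receptors, at -2.92 ± 0.23 (adjusted p = 1.7e-12 and 1.3e-10). Glra1 passed the filter on low counts through members alone, so its p is only a description. The AMPA receptor gene Gria1 was at 982, 1656 and 2806 CPM in members and 3731, 6596 and 8631 CPM in Lhx6 interneurons (log2 difference -2.07 ± 0.12, adjusted p = 1.7e-13). The oligodendrocyte gene Mbp was higher in members by 1.02 ± 0.28 (adjusted p = 0.0042), and 4 of 5 tested glial genes were higher, where 21.6% of all genes were higher and 19.4% lower. The 18 listed glial and vascular markers summed to 309 to 1468 CPM per mouse in members, with Tmem212 at 0, and to 128 to 381 CPM in Lhx6 interneurons, with Cldn5 and Flt1 at 0. The 11 choroid plexus markers other than Otx2 summed to 256 to 1490 CPM in members and 57.4 to 352 CPM in Lhx6 interneurons. Of these markers only Htr2c, Enpp2 and Prlr were high enough to test in this comparison. Without nuclei carrying markers of other cells, 2996 genes passed against Lhx6 interneurons and 1475 against Gata3/Pax3 nuclei, where the glial sums were 313 to 813 CPM.

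The share of members did not separate the 3 groups. It was 1.13% ± 0.845 of nuclei in NP (SD, n = 6, lowest 0.175, median 0.817, highest 2.43), 0.840% ± 0.549 in control RE (n = 4, 0.474, 0.621 and 1.64) and 0.912% ± 0.773 in stress RE (n = 5, 0.305, 0.678 and 2.26). The mice of every group spread over most of the range of the others. Two-sided exact permutation tests over mice gave p = 0.543 for control RE against NP, 0.841 for stress RE against control RE and 0.688 for stress RE against NP, each with an adjusted p of 0.841 over the 3 contrasts. The smallest p these designs allow is 0.00952, 0.0159 and 0.00433.

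The order of the groups also changed between batches. Control RE lay below NP by 0.396 percentage points in batch 2 (2 mice a group) and above it by 0.242 in batch 3, and stress RE lay above control RE by 0.0349 in batch 2 and below it by 0.568 in batch 3. In batch 1 the single stress RE mouse had 2.26% against a mean of 1.54% in 2 NP mice. As a share of GABAergic nuclei the mean for NP was 9.82% ± 6.61, for control RE 9.43% ± 5.42 and for stress RE 6.78% ± 4.97, with exact permutation p = 0.933, 0.429 and 0.398.

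**Figure D4:**
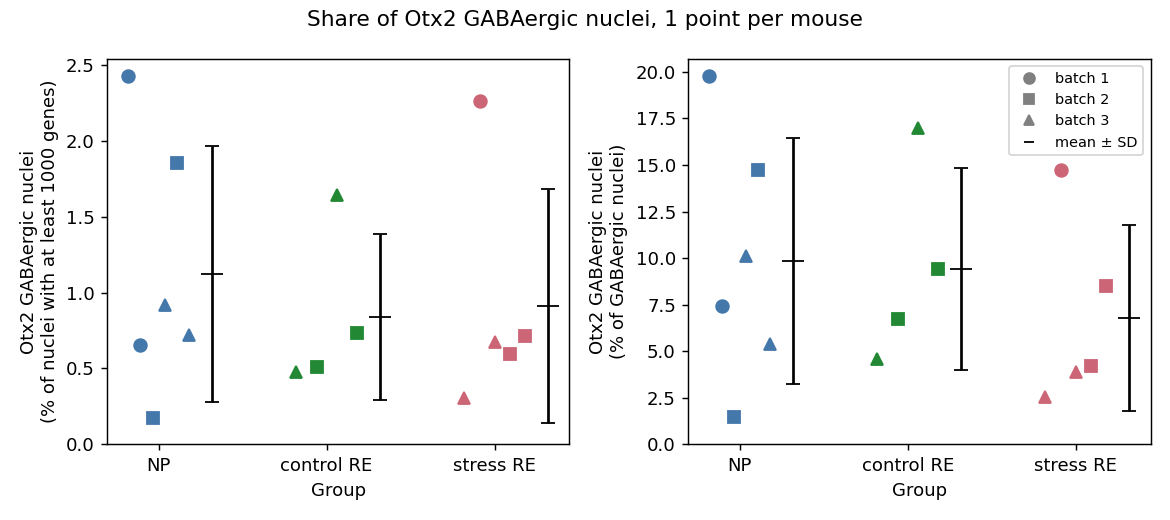
Otx2 GABAergic nuclei as a percentage of nuclei with at least 1000 genes (left) and of GABAergic nuclei (right), with 1 point per mouse, marker shape for batch and the mean ± SD of each group beside it. The groups overlapped in both panels, from 0.175% to 2.43% on the left.

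Across the 15 mice, members were more frequent where Gata3/Pax3 GABAergic nuclei were. Pearson's r was 0.709 and Spearman's rho 0.664 (permutation p = 0.00274 and 0.00855, adjusted p = 0.0137 and 0.0427 over 5 relations). Without NP mice 35 and 63, which lay farthest from the median Gata3/Pax3 share, r was 0.649. Within batches r was 0.990 among the 6 mice of batch 2 and 0.279 among the 6 of batch 3, and batch 1 had 3 mice, too few for a value. Leaving out stress RE mouse 70 brought r to 0.650 and its adjusted p to 0.0781. The adjusted p of rho rose above 0.05 without any one of NP mice 35 and 63, stress RE mice 43 and 70 and control RE mice 72 and 87, and was at most 0.150. The other 4 relations did not pass on both measures, at r = -0.479 and rho = -0.582 for choroid plexus type nuclei (adjusted permutation p = 0.176 and 0.0632), -0.303 and -0.368 for striatal-type nuclei, 0.185 and 0.0464 for thalamic excitatory nuclei and 0.177 and 0.104 for Lhx6 interneurons (adjusted p of r 0.447, 0.528 and 0.528). For thalamic nuclei r was 0.866 in batch 2 and -0.920 in batch 3. Shares of 1 total are bound to each other, and differences in what the punch took in cannot be told apart from differences in the brain.

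**Figure D5:**
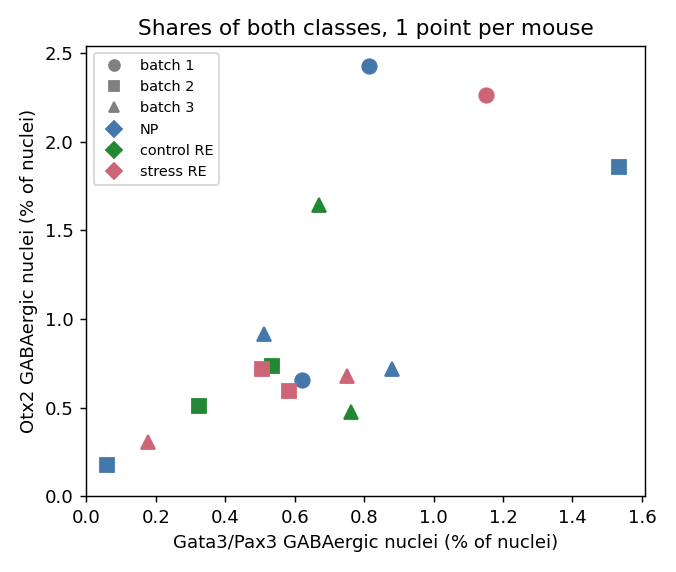
Share of Otx2 GABAergic nuclei (y axis, % of nuclei) against the share of Gata3/Pax3 GABAergic nuclei (x axis, % of nuclei), 1 point per mouse, with shape for batch and colour for group. NP mouse 63, at 1.54% and 1.86%, and NP mouse 35, at 0.0583% and 0.175%, lie at the ends.

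Within members, no gene passed between the groups. All 3 contrasts were fitted together in edgeR over 9027 genes, and 0 (0%) passed an adjusted p of 0.05 in each, with 308 (3.41%), 251 (2.78%) and 221 (2.45%) under an unadjusted p of 0.05 for control RE against NP, stress RE against control RE and stress RE against NP. DESeq2 also called 0 in each, with 252, 176 and 151 genes under an unadjusted p of 0.05. On simulated counts with known changes, the same fit recovered 56%, 50% and 68% of the genes altered by a log2 change of 1. For a log2 change of 2 it recovered 97%, 96% and 99%. The simulated spread followed the fitted trend over all genes, without the spread of single genes or the mix of sub-clusters. Real changes of either size could therefore be missed. In the data, Pde5a had a log2 difference of -3.81 for control RE against NP and did not pass.

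The genes with the smallest p are given as not passing. For control RE against NP they were Rapgef3, Pde5a, Tmem163, Gpam and Ror2, all lower in control RE. Tmem163, a zinc transporter, was at 5.18 to 32.7 CPM in control RE and 41.7 to 93.6 CPM in NP (log2 difference -1.54 ± 0.43, unadjusted p = 0.0020, adjusted p = 1.00 in edgeR), and those mice did not overlap, as was the case for 0.875% of genes. Leaving out 1 mouse moved the Tmem163 log2 difference between -2.54 and -1.34. The 11 choroid plexus markers other than Otx2 summed to 318 to 1490 CPM per mouse in NP (median 749) and 256 to 738 CPM in control RE (median 447), with Folr1 at 0 in control RE, and the summed glial markers to 347 to 1468 and 352 to 490 CPM. The choroid plexus list includes Htr2c and Prlr, which are described above also as receptor genes of members. The part of these markers in this contrast was not tested. For stress RE against control RE they included Pde5a, Erbb4, Pcsk1n and Sox1ot, all higher in stress RE. Erbb4 ranged from 162 to 2377 CPM in stress RE, with stress RE mouse 43 the highest, and from 179 to 291 CPM in control RE. Pde5a, a cGMP-specific phosphodiesterase, was in both lists and shares the control RE mice, which had 0, 0, 0.535 and 1.56 CPM. Some of these genes were higher in single sub-clusters whose shares varied between mice. Pde5a was at 32.3 CPM in sub-cluster 2 against 4.76 CPM in the other members, and Erbb4 at 1515 against 388 CPM. Sub-cluster 2 took 12.1% ± 6.75 of the members of NP mice, 8.75% ± 2.25 of those of control RE mice and 14.2% ± 8.92 of those of stress RE mice. In stress RE mouse 43, with the highest Erbb4, it took 12.5%. In Lhx6 interneurons Erbb4 and Sox1ot had means of 8491 and 205 CPM over mice, and the part of such RNA in members was not tested. Ror2 was at 180 CPM in sub-cluster 9 against 3.05 CPM in the others. Sub-cluster 9 took 5.91% ± 4.98, 1.45% ± 1.05 and 5.80% ± 8.50 of members in the same order, with 20.8% in stress RE mouse 43. The part of these shares in the contrasts was not tested. The oligodendrocyte gene Mbp was at 57.9 to 279 CPM in stress RE and 38.8 to 96.9 CPM in control RE, and the summed glial markers at 309 to 1084 and 352 to 490 CPM, and their part in this contrast was not tested. For stress RE against NP the genes were Dag1, Man1a, Itga3, Mex3c and Khdrbs2.

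Npsr1 had 77.3, 118 and 153 CPM in NP, 106, 152 and 213 CPM in control RE and 134, 159 and 254 CPM in stress RE (lowest, median, highest). The ranges overlapped in each pair of groups. Its log2 difference was 0.52 ± 0.24 for control RE against NP and 0.73 ± 0.22 for stress RE against NP, with unadjusted p = 0.043 and 0.0042 and an adjusted p of 1.00 for both in edgeR, and these contrasts share the NP mice. With 15 members drawn from each mouse, the difference for control RE against NP was -0.075. Of 21 listed hormone and stress genes, 13 were tested between the groups and none passed. In members the mineralocorticoid receptor Nr3c2 was at 480 CPM ± 85.5 (SD, n = 15), the glucocorticoid receptor Nr3c1 at 70.2 ± 17.1, the prolactin receptor Prlr at 50.3 ± 31.4 and the oestrogen receptor Esr1 at 13.6 ± 7.31 CPM, and the oxytocin receptor Oxtr had 3 UMIs in all.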

How the data were processed

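Nuclei from dHF punches of 15 mice were profiled with 10x Chromium 3′ v3.1, 1 library per mouse. The authors deposited filtered matrices of raw UMI counts per gene and barcode from Cell Ranger against mm10, per the file headers and labels, without correction for ambient RNA or removal of doublets. GRCm39 is also named in the submitters' processing notes. Members and gene lists were chosen with earlier results of these data known.

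Class UMI sums per mouse were tested with edgeR 4.0.16 (quasi-likelihood, filterByExpr, TMM, Benjamini-Hochberg), and DESeq2 1.42.0 was an alternative. Shares were tested by exact permutation over mice, and relations with 100000 resamples. Counting intervals cover counting error only. Nothing in the labels names litters or separate days, so p-values measure the spread between these mice. Sub-clusters used Leiden in scanpy 1.11.5 (1000 variable genes, 20 components, 15 neighbours, resolution 0.5). Doublets were kept. Scrublet marked 0.8% of barcodes per 1000 in a library, as an alternative. Flagged members had at least 1 UMI of Folr1, Kl and Clic6, 3 of Slc17a7 or 10 of oligodendrocyte markers. The tests were checked on simulated data with 200 changed genes.

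Named genes were list members, the 12 largest log2 differences in each direction with a level of at least 50 CPM in the higher class and 1 direction in every mouse, and, where no gene passed between groups, the 5 smallest p. Predicted, Rik and mitochondrial genes were counted but not named, and a few other genes are not reported here. Genes such as Dmbx1 and Chrna6 come from the lists.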

Additional observations from a re-analysis of the deposited data

Results flagged for a closer look

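Of 54 groups of 4 to 6 mice examined (shares, the share of sub-cluster 1, Npsr1 and the genes named between groups), 3 held a mouse far from the others by Dixon's test, which chance gives in about 1 of 20 groups. Stress RE mouse 70 had 2.26% members among its nuclei, against 0.305% to 0.716% in the other stress RE mice, and it was the only stress RE mouse of batch 1. NP mouse 35, with 15 members, had 46.7% of them in sub-cluster 1, against 16.1% to 24.5% in the other NP mice. Stress RE mouse 43, with 24 members, had Ror2 at 55.6 CPM, against 0 to 6.00 CPM in the other stress RE mice. In that mouse 20.8% of members lay in sub-cluster 9, where Ror2 was at 180 CPM against 3.05 CPM in the other members.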

How the results depend on the processing

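The 3 differences in share passed no threshold under any alternative run. Stress RE minus control RE changed sign with GABAergic nuclei as denominator (-2.64 percentage points) and on a log2 scale (-0.018), and ranged from -0.267 to 0.340 when 1 mouse was left out, turning negative without control RE mouse 66 or 72 or stress RE mouse 70. Control RE minus NP then ranged from -0.553 to -0.0243, and stress RE minus NP from -0.552 to 0.0472, positive without NP mouse 27. With 1 mouse left out, r with Gata3/Pax3 nuclei ranged from 0.650 to 0.783 and lost its call without stress RE mouse 70. Under the other alternatives r was 0.647 to 0.732 and passed, but rho did not with at least 3 Otx2 and Otx2os1 UMIs (adjusted p = 0.0676) or without members carrying markers of other cells (0.0583). The relation with choroid plexus type nuclei passed with the GABAergic denominator (r = -0.602), its rho also without the highest Scrublet scores (adjusted permutation p = 0.0368), without NP mouse 27 (0.0479) and without NP mouse 73 (0.0465), and r ranged from -0.643 (passing, without NP mouse 27) to -0.384. That with thalamic nuclei ranged from -0.0423 to 0.326, with striatal-type nuclei from -0.345 to -0.201 (r = -0.543 and rho = -0.643 with the GABAergic denominator, adjusted permutation p = 0.0562 and 0.0207) and with Lhx6 interneurons from 0.00299 to 0.326. The cause was not tested.

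Without a filter on low counts, 13 genes passed for control RE against NP and 3 for stress RE against control RE, from 22394 genes. With 15 members from each mouse, Npsr1 turned to a log2 difference of -0.075 for control RE against NP. Dropping the mouse block from the Gata3/Pax3 comparison left 931 calls (463 higher, 468 lower), and from the Lhx6 comparison 2868. Leaving out 1 mouse gave 1298 to 1506 calls against Gata3/Pax3 nuclei (605 to 743 higher, 676 to 790 lower) and 3017 to 3211 against Lhx6 interneurons (1500 to 1722 higher, 1431 to 1553 lower), and 0 between groups in every case. DESeq2 called 1172 and 2877. For single named genes over all alternatives, 5333 values kept direction and call, 129 lost the call, 6 gained it and 1 changed sign. No paired analysis was possible because the mice of the 3 groups share no numbers or litters in the labels. The group contrasts rest on 15 to 177 nuclei a mouse.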
